A study of Homo sapiens with 10 samples.

Results

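Aldo-keto reductases are NADPH-dependent enzymes that reduce aldehydes and ketones to alcohols, and 7 of their genes were followed here in a pair of bladder cancer cell lines. The listed genes were AKR1A1, AKR1B1, AKR1B10, AKR1C1, AKR1C2, AKR1C3 and AKR7A2, which are 7 of the 61533 genes counted. They were selected on their counts in the compared lines, with the differences already known, so everything said of them in that comparison is a description and carries no test. RNA-seq libraries came from T24 cells, grown from a human bladder carcinoma, and from T24R2, a derivative of T24 made by serial exposure to cisplatin, with 5 libraries of each line (replicates 1 to 5) from day 3 of culture. According to the study's methods T24R2 was kept in medium with cisplatin, whereas the labels give a single medium without the drug for T24 and T24R2 alike, so the line and any drug exposure cannot be told apart. T24R2 is a single derived line, and no label says that the replicates came from separate cultures, so p-values measure only the spread between these libraries, which may be technical.

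The family handles a wide range of carbonyl compounds. AKR1C enzymes act on steroid hormones and prostaglandins, AKR1B enzymes on glucose, retinal and lipid aldehydes, and AKR1A1 and AKR7A2 on small aldehydes of metabolism. Several members, above all in the AKR1B and AKR1C groups, are known as targets of NRF2 (gene NFE2L2), the transcription factor of the oxidative stress response, which KEAP1 holds for degradation in unstressed cells. Members of the family have been studied in several cancers because they can detoxify the reactive aldehydes formed under drug treatment.

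The genes on chromosome 10, AKR1C1, AKR1C2, AKR1C3 and the unlisted AKR1C4, are close copies of each other, which matters for counting because the authors kept uniquely mapped reads. Over 969 coding bases of the canonical transcripts (GENCODE release 44, read from hg38, stop codon left out), AKR1C1 and AKR1C2 differed at 19 positions (98% identity). AKR1C3 differed from AKR1C1 at 83 positions (91.4% identity) and AKR1C4 at 111 (88.5%). The stretch below is the window of 90 coding bases within 1 exon in which AKR1C1 and AKR1C2 differ most, shown because these letters are what tells their reads apart. It covers coding bases 85 to 174, all in coding exon 2 of 9, and capitals mark bases that differ from AKR1C1. The coordinates are chr10:4965914-4966003 (plus strand) for AKR1C1, chr10:5001592-5001681 (minus strand) for AKR1C2, chr10:5096410-5096499 (plus strand) for AKR1C3 and chr10:5200181-5200270 (plus strand) for AKR1C4.
AKR1C1: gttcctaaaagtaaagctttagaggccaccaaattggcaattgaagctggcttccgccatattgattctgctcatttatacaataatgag
AKR1C2: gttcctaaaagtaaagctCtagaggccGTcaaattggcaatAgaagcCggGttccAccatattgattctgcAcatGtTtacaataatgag
AKR1C3: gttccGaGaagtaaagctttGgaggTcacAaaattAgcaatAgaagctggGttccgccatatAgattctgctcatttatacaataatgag
AKR1C4: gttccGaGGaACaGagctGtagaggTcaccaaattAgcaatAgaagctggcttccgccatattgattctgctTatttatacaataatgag

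In this window AKR1C2 differed from AKR1C1 at 10 bases, AKR1C3 at 9 and AKR1C4 at 11. Of all 150-base windows within the counted exons of AKR1C1, 14.5% occurred elsewhere on the chromosomes of hg38, on either strand, and for AKR1C2 the share was 12.9%. It was 0.845% for AKR1C3 and 0% for AKR1A1, AKR1B1, AKR1B10 and AKR7A2. With windows of 100 bases the shares were 21.7% for AKR1C1, 22.3% for AKR1C2, 2.87% for AKR1C3 and at most 4.37% for the others. By these windows, AKR1C1 and AKR1C2 had larger shares of repeated sequence than the rest. Windows lay within single exon blocks at least as long as the window, so shorter exons and spliced fragments were not covered. The share of fragments lost for each gene, and its part in the counts, was not tested.

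Upstream of the start site, AKR1C1 and AKR1C2 were closer still. The 120 bases before the RefSeq start of AKR1C1 (chr10:4963295-4963414, plus strand, hg38) had an ungapped counterpart before the start of AKR1C2 (chr10:5003862-5003981, minus strand) with 1 difference, and a looser one before the second RefSeq start of AKR1C3 (chr10:5094285-5094404, plus strand) with 50 differences. They are shown because AKR1C1 and AKR1C2, with nearly the same upstream letters, stood far apart in their values. Capitals mark bases that differ from AKR1C1.
AKR1C1: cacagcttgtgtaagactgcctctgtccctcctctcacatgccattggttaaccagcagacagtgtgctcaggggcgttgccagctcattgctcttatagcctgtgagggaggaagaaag
AKR1C2: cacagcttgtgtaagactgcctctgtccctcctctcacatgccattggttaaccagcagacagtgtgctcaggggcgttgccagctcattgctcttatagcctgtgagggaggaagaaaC
AKR1C3: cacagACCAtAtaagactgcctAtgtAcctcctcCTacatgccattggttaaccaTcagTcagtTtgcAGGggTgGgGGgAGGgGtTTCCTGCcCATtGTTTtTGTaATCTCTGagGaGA

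The gene model of AKR1C2 in the counted annotation reaches further upstream (chr10:4987775-5018031), so other starts than this one exist. The antioxidant response element, the DNA letters bound by NRF2, was searched in windows from 250 bases before to 50 after each RefSeq start, on either strand, as the core TGACNNNGC and as the stricter TGACTCAGC, which is one spelling of the core. RefSeq windows (GRCh38.p14) were at hand for 6 of the 7 genes, 9 windows in all, and AKR1B10 had none. Of all 35116 windows, 13.3% held the core and 0.561% the stricter form. Among the listed genes, the 2 windows of AKR7A2 held the core and no window held the stricter form. Those 2 windows overlap almost wholly and hold the same matches. The AKR7A2 match region follows (chr1:19312227-19312319, minus strand, bases -175 to -83 from the start), with its 3 matches in capitals, at -169 on the opposite strand and at -158 and -97 on the gene's own strand.
AKR7A2: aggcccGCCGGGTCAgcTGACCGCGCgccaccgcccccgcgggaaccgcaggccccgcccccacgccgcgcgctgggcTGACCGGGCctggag

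The AKR7A2 stretch also lies just before SLC66A1, which starts at base 19312326 of chromosome 1 on the plus strand. A match is no binding site by itself, and elements further away lie outside these windows. The counts behind the results below are fragments per gene, with 9257843 to 10247941 in the T24 libraries and 9591379 to 10840954 in the T24R2 libraries. They are given as CPM, counts brought to a common library size with the TMM factors of edgeR, and, where genes are compared with each other, as FPKM, which is CPM per kilobase of the exon length in the count tables. Differences are log2 fold changes of T24R2 over T24 with their standard error (SE). A gene is called where the edgeR quasi-likelihood test, adjusted by Benjamini-Hochberg over all 16181 genes tested, gives an adjusted p under 0.05 and the log2 fold change is beyond 0.5 in either direction, the limits of the study's methods.

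By this rule 3 of the 7 genes were higher in T24R2 (AKR1C1, AKR1C3 and AKR1B10) and 1 was lower (AKR1A1), beside 24.9% higher and 26.5% lower among all genes tested. For 4 of them (the same 3 and AKR1B1) every T24R2 library lay above every T24 library, and for AKR1A1 every one lay below, beside 29.9% and 31.3% of all genes tested. Since the genes were listed on this contrast, nothing is read from these counts. The median log2 fold change was 0.34 over the 7 genes and 0.02 over all genes tested, and all 7 passed the filter on low counts, AKR1B10 only through its counts in T24R2.

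AKR1C3 (ENSG00000196139.14, chromosome 10 of hg38, 5035354 to 5107686, plus strand) makes testosterone from its precursor and also forms prostaglandin F. Its CPM in T24 replicates 1 to 5 was 30.0, 22.0, 23.7, 27.4 and 23.7, and in T24R2 replicates 1 to 5 it was 284, 297, 302, 292 and 271. The lines were far apart, with the lowest T24R2 library above the highest T24 library. The means were 25.3 ± 3.28 and 289 ± 12.3 CPM (SD, n = 5 per line), a ratio of 11.4 and a log2 fold change of 3.51 (SE 0.06), the largest of the listed genes with counts above the floor in each line.

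AKR1C1 (ENSG00000187134.14, chromosome 10, 4963253 to 4983283, plus strand) reduces progesterone to a weaker steroid. In T24 replicates 1 to 5 it stood at 82.6, 60.0, 70.4, 88.0 and 65.3 CPM, and in T24R2 replicates 1 to 5 at 388, 363, 385, 372 and 368. All T24R2 libraries were higher than all T24 libraries. The means were 73.3 ± 11.8 and 375 ± 10.9 CPM (SD, n = 5 per line), a ratio of 5.12 and a log2 fold change of 2.36 (SE 0.06). T24 replicates 1 and 4 were the highest T24 libraries for AKR1C1, AKR1C2 and AKR1C3 alike.

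AKR1C2 (ENSG00000151632.18, chromosome 10, 4987775 to 5018031, minus strand) lies between AKR1C1 and AKR1C3 and inactivates dihydrotestosterone. Its counts were 41, 32, 30, 49 and 30 in T24 replicates 1 to 5 and 34, 41, 18, 43 and 35 in T24R2 replicates 1 to 5. The lines overlapped. The means were 3.91 ± 0.858 and 3.14 ± 0.827 CPM (SD, n = 5 per line), with a log2 fold change of -0.32 (SE 0.22), which is within the spread of the libraries. AKR1C2 thus had few counts in each line and no difference beyond that spread. What part its upstream letters, nearly the same as those of AKR1C1, have in this was not tested.

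**Figure D1:**
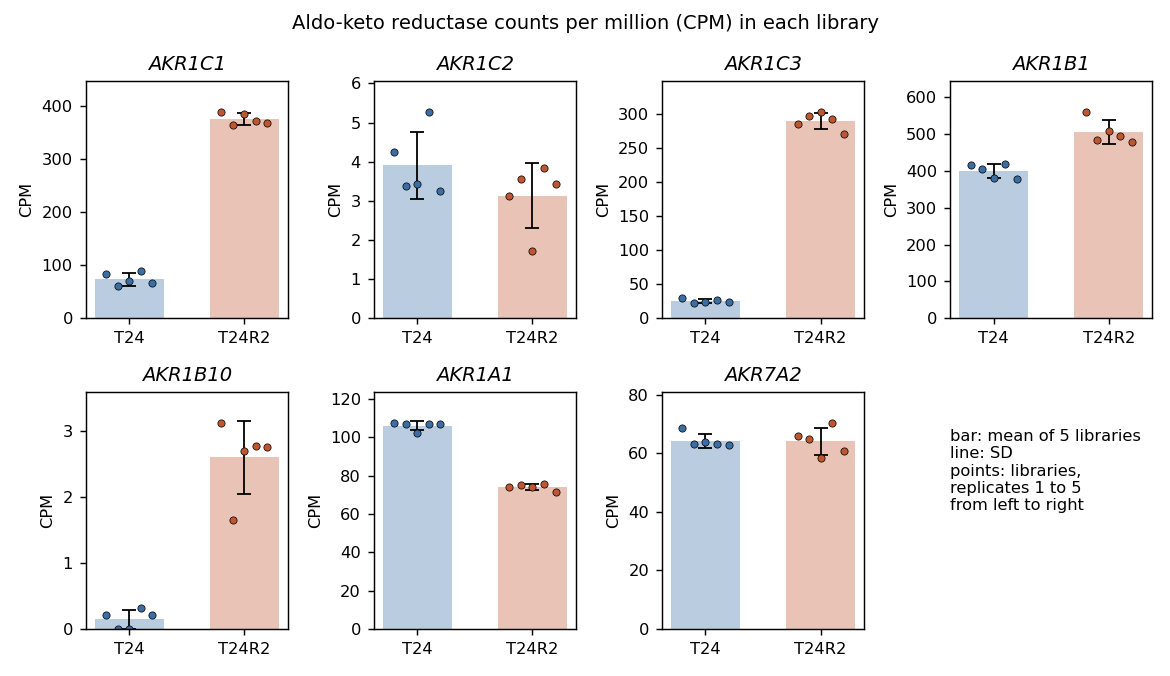
CPM of the 7 listed genes in the 10 libraries, with a linear axis from 0 for each gene, bars for the mean of 5 libraries, lines for the SD and points for replicates 1 to 5 from left to right. AKR1C1, AKR1C3, AKR1B1 and AKR1B10 lie higher in every T24R2 library, AKR1A1 lies lower, and AKR1C2 and AKR7A2 overlap.

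Within the cluster the proportions also differed between the lines. Of the counts of AKR1C1, AKR1C2, AKR1C3, AKR1C4 and AKR1C8 together, AKR1C1 took 71.3% ± 1.03 in T24 but 55.9% ± 1.13 in T24R2 (SD over 5 libraries). AKR1C3 took 24.8% ± 1.36 and 43.1% ± 1.17, and AKR1C2 3.79% ± 0.355 and 0.469% ± 0.129. Per kilobase of exon, AKR1C1 held 53.6% ± 1.27 of the summed FPKM of these genes in T24 and 36.0% ± 1.04 in T24R2, and AKR1C3 41.8% ± 1.96 and 62.1% ± 1.14. On that scale the leading AKR1C transcript was AKR1C1 in T24 and AKR1C3 in T24R2. The scale depends on the exon length in the tables, which is 8765 bases for AKR1C1 and 3911 for AKR1C3.

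AKR1B1 (ENSG00000085662.14, chromosome 7, 134442356 to 134459284, minus strand) is aldose reductase, which turns glucose into sorbitol in the polyol pathway. Its CPM was 416, 406, 382, 420 and 380 in T24 replicates 1 to 5 and 560, 484, 509, 494 and 480 in T24R2 replicates 1 to 5. The lines did not overlap, but the gap was small beside that of AKR1C3. The means were 401 ± 19.0 and 505 ± 32.8 CPM (SD, n = 5 per line), a ratio of 1.26 and a log2 fold change of 0.34 (SE 0.05), under the fold minimum.

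AKR1B10 (ENSG00000198074.10, chromosome 7, 134527567 to 134541412, plus strand) reduces retinal and is normally an enzyme of the gut. Its counts were 2, 0, 0, 3 and 2 in T24 replicates 1 to 5 and 34, 19, 28, 31 and 28 in T24R2 replicates 1 to 5. T24 was thus at or under 3 counts in every library, the floor used here, while every T24R2 library was above it. The means were 0.149 ± 0.144 and 2.59 ± 0.556 CPM (SD over 5 libraries), and against 3 counts per T24 library AKR1B10 was at least 8.02-fold higher in T24R2, a bound that covers counting error only. It shares 75.2% of its 948 coding bases with AKR1B1, and no 150-base exon window examined in either gene occurred elsewhere. At 100 bases, 2.2% of the AKR1B10 windows and 4.37% of the AKR1B1 windows did.

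AKR1A1 (ENSG00000117448.14, chromosome 1, 45550543 to 45570049, plus strand) is aldehyde reductase, which reduces glucuronate. It stood at 108, 107, 102, 107 and 107 CPM in T24 replicates 1 to 5 and at 74.1, 75.3, 73.8, 75.6 and 71.7 in T24R2 replicates 1 to 5. Here T24R2 lay below T24 in every library. The means were 106 ± 2.13 and 74.1 ± 1.55 CPM (SD, n = 5 per line), a ratio of 0.698 and a log2 fold change of -0.52 (SE 0.05), just beyond the fold minimum. It did not reach that minimum without scaling (-0.35), with upper-quartile scaling (-0.44) or when genes averaging under 100 counts were dropped (-0.49).

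AKR7A2 (ENSG00000053371.13, chromosome 1, 19303965 to 19312144, minus strand) reduces succinic semialdehyde and the aldehyde of aflatoxin. Its CPM was 68.6, 63.0, 63.9, 63.2 and 62.9 in T24 replicates 1 to 5 and 65.9, 64.8, 58.5, 70.5 and 60.8 in T24R2 replicates 1 to 5. The libraries of the lines were interleaved. The means were 64.3 ± 2.43 and 64.1 ± 4.67 CPM (SD, n = 5 per line), with a log2 fold change of -0.005 (SE 0.06). AKR7A2 thus differed by less than its SE, and the sign of that difference changed with the scaling (0.16 without scaling). What part the response element letters in its windows have in this was not tested.

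Per kilobase of exon, AKR1B1 was the highest of the listed genes in each line, at 110 ± 5.21 FPKM in T24 and at 138 ± 8.97 in T24R2 (SD over 5 libraries). In T24 it was followed by AKR7A2 (36.2 ± 1.36), AKR1A1 (34.0 ± 0.681), AKR1C1 (8.36 ± 1.34), AKR1C3 (6.48 ± 0.838), AKR1C2 (0.643 ± 0.141) and AKR1B10 (0.0842 ± 0.0810). The ranges of AKR1C1 and AKR1C3 over the T24 libraries overlapped, and those of the other neighbours did not. Within every T24 library AKR1C1 was nevertheless the higher. It held 52.4% to 55.1% of the summed AKR1C FPKM there, and AKR1C3 38.5% to 43.1%. In T24R2 the order after AKR1B1 was AKR1C3 (74.0 ± 3.14), AKR1C1 (42.8 ± 1.24), AKR7A2 (36.0 ± 2.63), AKR1A1 (23.7 ± 0.496), AKR1B10 (1.46 ± 0.313) and AKR1C2 (0.515 ± 0.136), with no overlap between neighbours. These orders depend on the counted exon lengths, 8765 bases for AKR1C1 and 3911 for AKR1C3. By CPM, AKR1C1 stood above AKR1C3 in T24R2 too (means 375 and 289).

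**Figure D2:**
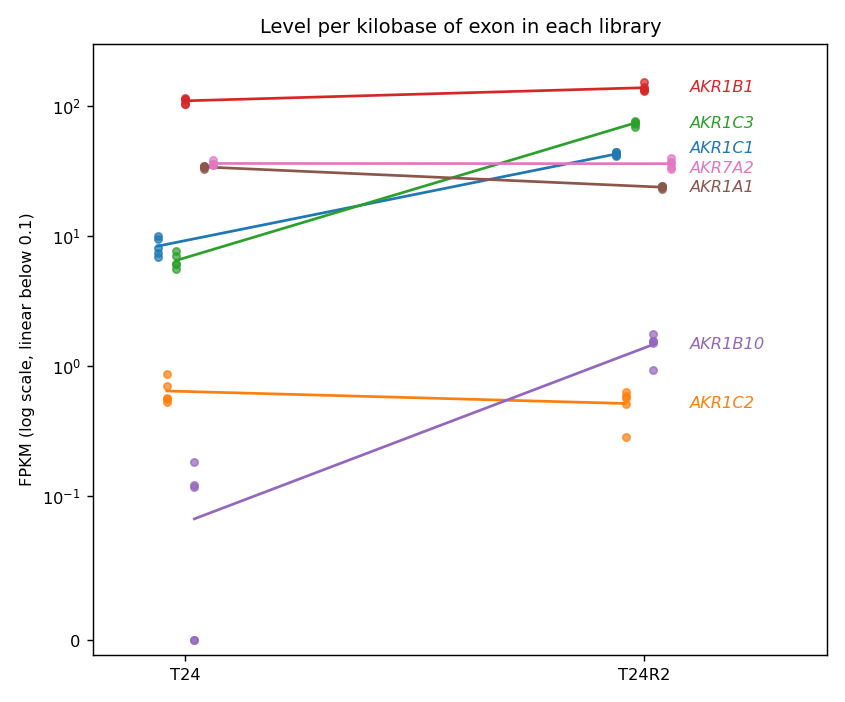
FPKM of each listed gene in T24 and T24R2 on a log axis that is linear below 0.1, with points for the 5 libraries of each line and lines joining the means. AKR1C3 and AKR1C1 pass AKR7A2 and AKR1A1 between T24 and T24R2, and AKR1B10 passes AKR1C2, while AKR1B1 is at the top in each line.

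Among all genes tested, the FPKM of AKR1C3 stood above 57.6% of genes in T24 and above 97% in T24R2, and that of AKR1C1 above 64.3% and 94.5%. AKR1A1 and AKR7A2, which act on small aldehydes, kept high places in each line, at 91.2% and 91.8% in T24 and at 88.2% and 93.1% in T24R2. The summed FPKM of the 7 genes was 195 ± 8.10 over the T24 libraries and 317 ± 11.5 over those of T24R2 (SD), a ratio of 1.62. In bulk RNA, more RNA per cell and more cells that express a gene cannot be told apart.

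The 10 other genes of the family were not in the rule, and 6 of them passed the filter on low counts. Of these 6, 5 rose in T24R2 and 0 fell, beside 24.9% and 26.5% of all genes tested, and KCNAB1, a potassium channel subunit, was not called (log2 fold change -0.44, SE 0.28, adjusted p = 0.146 by edgeR). Their median was 1.66, beside 0.02 over all genes. AKR1C4 and AKR1C8, with at most 4 counts in any T24 library, passed the filter only through T24R2 and had to differ. AKR7L, with 1 to 9 counts in T24, also passed only through T24R2, and KCNAB3, with 4 to 16, passed with the help of T24R2. When genes averaging under 100 counts were dropped, 1 of them was called higher in place of 5. They were also listed with earlier results of these data known, so nothing is read from the count.

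The highest of them per kilobase of exon was KCNAB2 (6.01 ± 0.339 FPKM in T24 and 13.0 ± 0.942 in T24R2, SD), which encodes a beta subunit of voltage-gated potassium channels with the fold of this enzyme family. It stood at 109, 107, 103, 108 and 94.5 CPM in T24 replicates 1 to 5 and at 239, 232, 201, 218 and 240 in T24R2 replicates 1 to 5. The lines were apart, and KCNAB2 rose by a log2 fold change of 1.12 (SE 0.05, edgeR adjusted p = 9e-22). Its relative KCNAB3 rose from a mean of 1.14 ± 0.479 CPM up to 4.21 ± 0.660 (SD over 5 libraries each). That is 1.88 on the log2 scale (SE 0.27), given without a p, since KCNAB3 passed the filter with the help of T24R2. Of the exon bases of KCNAB2, 1.22% lie opposite exons of NPHP4, and KCNAB3 shares 252 exon bases with ENSG00000262730 on its own strand.

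AKR1C4, which acts on steroids and bile acid precursors and belongs to the liver, had 2, 0, 0, 2 and 0 counts in T24 replicates 1 to 5 and 17, 22, 23, 17 and 13 in T24R2 replicates 1 to 5. It was at least 5.24-fold higher in T24R2. AKR1C8 had 0, 1, 0, 4 and 0 counts in T24 and 24, 20, 17, 20 and 31 in T24R2, or 4.12 higher on the log2 scale (SE 0.54). AKR7L, a relative of AKR7A2 that is classed as a gene or a pseudogene, rose by 1.44 on the log2 scale (SE 0.41). All of these genes passed the filter only through T24R2, so no p is given for them. Their counts were few, and how far the exons of AKR7L and AKR1C8 occur elsewhere in the genome was not examined. AKR1B15, AKR1D1, AKR1E2 and AKR7A3 were not tested. AKR1D1 was at 0 counts in every library, which allows at most 3 counts per library, AKR1E2 at 0 or 1, AKR1B15 at 0 to 6 and AKR7A3 at 2 to 14.

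Higher counts in T24R2 along chromosome 10 were also found at pseudogenes and noncoding genes. Between the start of AKR1C1 and the end of the pseudogene AKR1C7P, a stretch of 325 kb bounded by AKR1C names after values had been seen, the tables hold 12 genes. Of the 9 that were not listed, 5 had enough counts to be tested, namely AKR1C4, AKR1C8, AKR1C7P, LINC02561 and ENSG00000287848. Each had 0 to 4 counts in every T24 library and passed the filter only through T24R2, so that all 5 were called higher was fixed by the filter, and nothing is read from that count beside the 24.9% of all genes tested. AKR1C7P had at most 2 counts in any T24 library but 84 to 103 in those of T24R2, at least 27.1-fold higher. The noncoding LINC02561 was at least 14.1-fold higher, and neither is given a p. The pseudogene AKR1C5P, with 0 counts in every T24 library and 6 to 16 in T24R2, was at least 3.28-fold higher but had too few counts to be tested. AKR1C4 and ENSG00000287848 share 83 exon bases on opposite strands, and since the kit is not described as keeping strand, reads there cannot be told apart. How far the exons of the pseudogenes occur elsewhere in the genome was not examined. The 7 listed genes share 0 exon bases with any other gene in the tables.

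**Figure D3:**
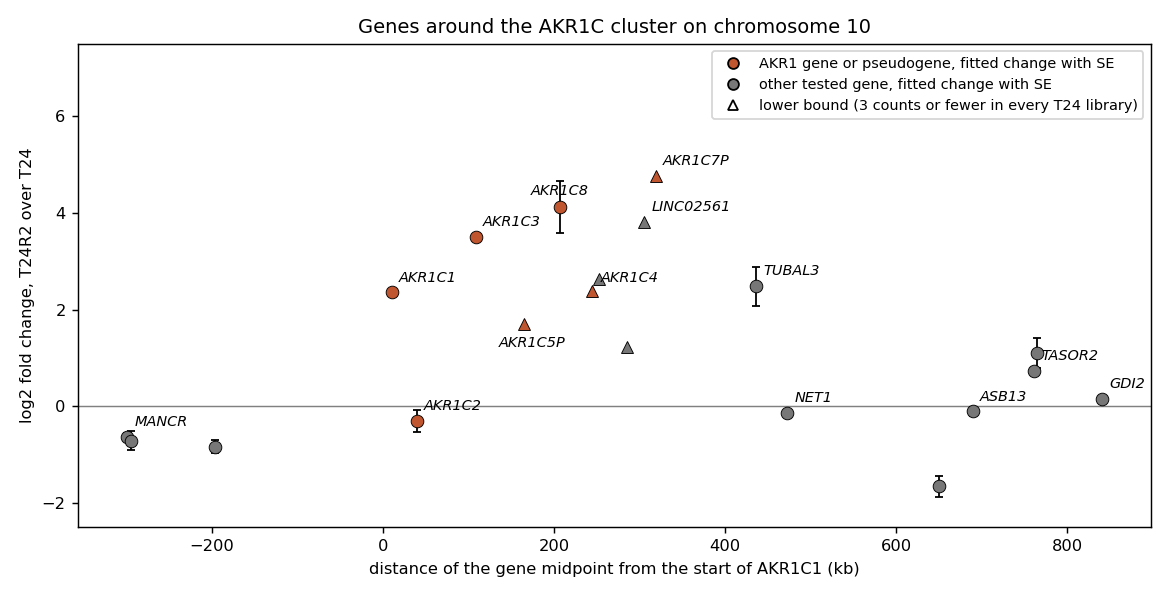
Log2 fold change of T24R2 over T24 (y axis) against the distance of each gene midpoint from the start of AKR1C1 in kb (x axis), with circles and SE bars for fitted changes and triangles for lower bounds of genes with 3 counts or fewer in every T24 library. The AKR1C genes and pseudogenes shown lie above 1 except AKR1C2 at -0.32, and NET1 further on lies at -0.14. Untested genes without a bound are not drawn, nor are ENSG00000287235 and ENSG00000287566, at 3 counts or fewer in every T24R2 library.

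Outside that stretch the neighbours were mixed. The nearest tested gene before AKR1C1, ENSG00000287023, lies 178153 bases away and fell by 0.84 on the log2 scale (SE 0.14, edgeR adjusted p = 6.88e-07). The nearest after AKR1C3 is AKR1C8, given above. Beyond AKR1C7P, TUBAL3, an alpha-tubulin-like gene with 1 to 5 counts in T24 and 16 to 30 in T24R2, rose by 2.48 (SE 0.40). TUBAL3 passed the filter only through T24R2, so no p is given. The abundant NET1, an exchange factor for RhoA, had a log2 fold change of -0.14 (SE 0.05), under the fold minimum.

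Beside the pair on chromosome 7, LINC03060 fell by 1.27 on the log2 scale (SE 0.28, edgeR adjusted p = 0.000105) with overlapping libraries, and BPGM, which makes bisphosphoglycerate, was not called (0.14, SE 0.11). Around AKR1A1, the peroxidase PRDX1 (0.07, SE 0.04) was not called, and the histone chaperone NASP (-0.34, SE 0.05, edgeR adjusted p = 4.11e-08) stayed under the fold minimum. Around AKR7A2, ENSG00000270728 (0.13, SE 0.36) and SLC66A1 (0.10, SE 0.09) were not called either. These nearest neighbours on chromosomes 1 and 7 thus gave no called rise, but genes further out did, chosen here after their values were seen. On chromosome 7, SLC35B4, a sugar nucleotide transporter, rose by 0.56 (SE 0.08, edgeR adjusted p = 1.83e-08) and CALD1, the actin-binding caldesmon, by 0.91 (SE 0.05, edgeR adjusted p = 6.74e-21). Near AKR7A2, ENSG00000286064 rose by 2.62 (SE 0.43), with 1 to 7 counts in T24, and AKR7L rose as given above. Both passed the filter only through T24R2, so no p is given.

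The RNA of NRF2 was counted next to that of its targets, while neither NRF2 protein nor its activity was measured here. NFE2L2 rose from 98.9 ± 2.33 CPM in T24 up to 280 ± 23.3 in T24R2 (SD over 5 libraries each), by 1.502 on the log2 scale (SE 0.05, edgeR adjusted p = 2.25e-26). KEAP1, its negative regulator, rose as well, by 0.73 (SE 0.06, edgeR adjusted p = 7.35e-14). Of 8 genes of NRF2 and its partners, 4 rose (50%, beside 24.9% of all genes), 3 fell (37.5%, beside 26.5%) and MAFG was not called, with a median of 0.23. NFE2L1, a related factor, rose by 0.51 (SE 0.04, edgeR adjusted p = 2.42e-14), at the fold minimum. With shrunken DESeq2 fold changes, and without T24 replicate 1, 3 or 5 or T24R2 replicate 5, 3 of these 8 genes were called higher in place of 4. BACH1, a repressor that competes for the same DNA element, fell by 1.04 (SE 0.05, edgeR adjusted p = 1.24e-21), and MAFF, a small Maf protein of the kind NRF2 pairs with, fell by 0.83 (SE 0.06, edgeR adjusted p = 1.88e-15).

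Of 25 known NRF2 targets outside the family, 23 were tested, of which 16 rose (69.6%, beside 24.9% of all genes tested), 0 fell (beside 26.5%) and 7 were not called. Their median log2 fold change was 1.07, beside 0.02 over all genes. The most significant were PGD, an NADPH-making enzyme of the pentose phosphate pathway, with 107 ± 5.82 CPM in T24 against 734 ± 11.9 in T24R2 (SD over 5 libraries each, log2 fold change 2.78, SE 0.05, edgeR adjusted p = 3.57e-37), and the cystine transporter SLC7A11 (3.06, SE 0.06, edgeR adjusted p = 3.7e-35). NQO1, the quinone reductase often used to report NRF2 activity, rose by 1.59 (SE 0.04, edgeR adjusted p = 1.38e-30). The thioredoxin reductase TXNRD1, also a target, had a log2 fold change of -0.18 (SE 0.04), under the fold minimum. The list was drawn up with earlier results of these data known, so its count is not independent evidence of a direction, and the part of NRF2 in the values of the AKR genes was not tested.

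**Figure D4:**
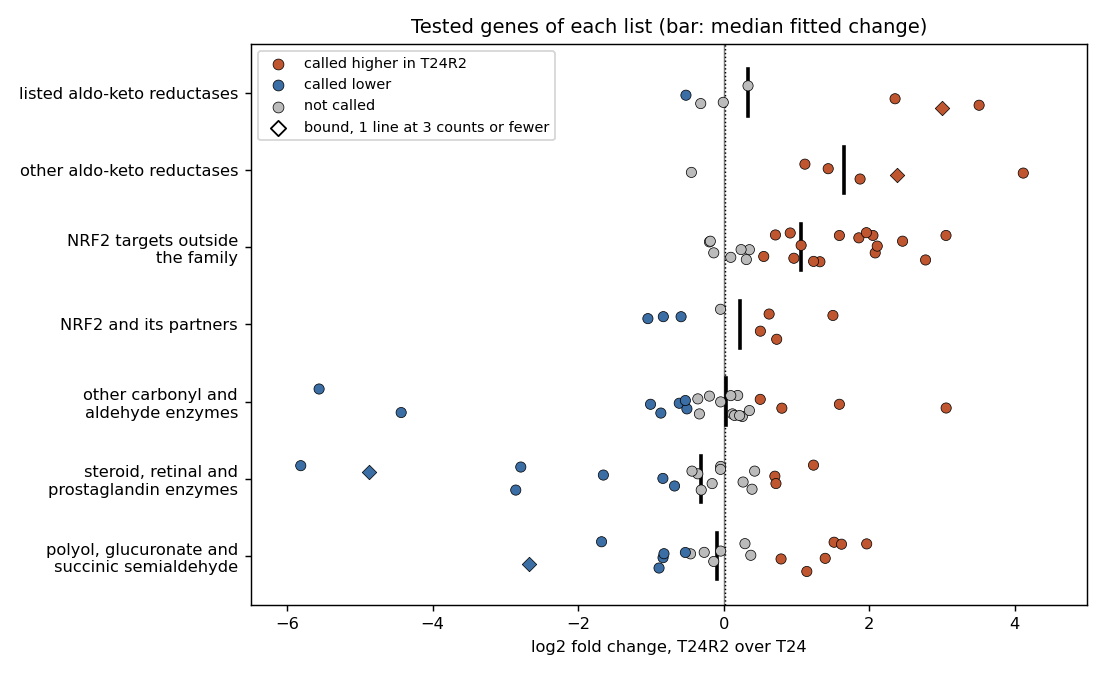
Log2 fold change of T24R2 over T24 (x axis) for each tested gene of 7 lists (rows), with colours for the call, diamonds for bounds of genes at 3 counts or fewer in 1 line and bars for the median fitted change. The dotted line is the median over all genes, at 0.02, and the medians lie at 0.34 for the listed genes, 1.66 for the other family genes, 1.07 for NRF2 targets and between -0.31 and 0.23 for the rest.

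Other enzymes that act on the same kinds of substrate were counted in the same way, beside 24.9% higher and 26.5% lower among all genes tested. Some genes, among them NQO1, CBR1 and SORD, stand in 2 lists, so the lists are not separate. Of 25 other carbonyl and aldehyde enzymes, 22 were tested, 4 rose (18.2%) and 7 fell (31.8%), with a median of 0.03, and nothing is read from these shares. ALDH3A2, which oxidises fatty aldehydes, rose from a mean of 44.1 ± 2.12 CPM up to 368 ± 9.69 (SD over 5 libraries each), by 3.06 on the log2 scale (SE 0.05, edgeR adjusted p = 2.6e-37). The mitochondrial aldehyde dehydrogenase ALDH2 fell from 8.41 ± 1.58 to 0.169 ± 0.155 CPM, without a p, since it passed the filter on low counts only through T24. ALDH7A1, of lysine breakdown, fell by 0.86 (SE 0.06, edgeR adjusted p = 1.02e-15). NQO1 was the other of the most significant rises on this list.

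Of 32 steroid, retinal and prostaglandin enzymes, which share substrates with the AKR1C group, 19 were tested, 3 rose (15.8%, beside 24.9% of all genes) and 7 fell (36.8%, beside 26.5%), with a median of -0.31. HSD17B10, a mitochondrial steroid and fatty acid dehydrogenase, rose by 1.24 (SE 0.07, edgeR adjusted p = 1.28e-18), and SRD5A1, which makes dihydrotestosterone, by 0.72 (SE 0.07, edgeR adjusted p = 2.86e-11). PTGES and PTGS1, enzymes of prostaglandin synthesis, were among the falls. PTGES fell from 17.2 ± 3.07 to 0.295 ± 0.351 CPM (SD, n = 5 each), and PTGS1 was at least 29.3-fold lower in T24R2. Both passed the filter on low counts only through T24, so no p is given.

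Of 19 genes of the polyol, glucuronate and succinic semialdehyde pathways, in which AKR1B1, AKR1A1 and AKR7A2 work, 18 were tested, 6 rose and 6 fell (33.3% each, beside 24.9% and 26.5% of all genes), with a median of -0.09. The taurine transporter SLC6A6 rose by 1.14 (SE 0.06, edgeR adjusted p = 2.68e-21), and ALDH5A1, which oxidises the succinic semialdehyde that AKR7A2 reduces, rose by 1.396 (SE 0.13, edgeR adjusted p = 7.04e-13). GLO1, which clears methylglyoxal, fell by 0.83 (SE 0.05, edgeR adjusted p = 1.42e-18). CRYL1, the next enzyme after AKR1A1 in the glucuronate pathway, fell by 1.68 (SE 0.11, edgeR adjusted p = 2.94e-17). With the genes at the floor placed at their bounds, no list median changed.

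The genes whose log2 CPM followed each AKR gene most closely over the 10 libraries were taken by Pearson's r, as a description, since all points share the difference between the lines. For AKR1C3 they were TRIM16L (r = 0.9989), ITGB3 (0.9988) and DOCK10 (0.9983). For AKR1C1 they were RPS6KA2 (0.9990), SPANXB1 (0.9981) and BCL11B (0.9981), and AKR1C3 was not among these 3. For AKR1B1 the first was ZNF490 (0.9751), for AKR1B10 ZDHHC23 (0.9970), for AKR1A1 AMBRA1 (0.9974), for AKR1C2 ARPC1B (0.9394) and for AKR7A2 SNRPE (0.9015). The genes with overlapping lines, AKR1C2 and AKR7A2, had the lowest values.

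The labelled tissue was checked by its markers. Of 10 urothelial markers 4 were tested and all 4 fell, beside 26.5% of all genes tested. Among them was GATA3 (from 22.1 ± 2.004 down to 0.214 ± 0.210 CPM, SD over 5 libraries each), which passed the filter on low counts only through T24. The keratins KRT7, KRT8 and KRT18 were abundant in each line, and 4 of 4 epithelial keratins fell. The other of these, KRT19, was abundant in T24 only. It fell from 267 ± 7.23 to 0.0887 ± 0.12 CPM (SD over 5 libraries each), at least 963.5-fold. KRT19 passed the filter on low counts only through T24, so its direction was fixed by the filter. KRT20 was at 0 in every library, and KRT5, UPK1A, UPK1B and UPK3A were near 0. The summed level of the 10 urothelial markers was 174 to 181 CPM in T24 and 40.1 to 47.4 in T24R2. Of 10 markers of other cell types, 2 were tested and both fell, beside 26.5% of all genes tested. The sum of the 10 was low, 10.7 to 14.8 CPM in T24 and 1.87 to 4.03 in T24R2, so nothing is read from that count. The part of these markers in the AKR values was not tested.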

How the data were processed

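RNA-seq libraries of T24 and T24R2 (5 each) were used. The authors deposited 1 table of fragment counts for each library, neither normalized nor pooled. By their methods and the file headers, reads were aligned to hg38 with STAR 2.7.0, uniquely mapped reads without duplicates were kept with SAMtools 1.10, and featureCounts 2.0.1 counted them on GENCODE release 39 with strand option 1. The kit (NEBNext Ultra II) is not described as strand-specific, so part of a gene's fragments may be missed or given to a gene on the opposite strand, and removing duplicates can lower abundant genes.

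From these counts, 16181 genes passed the filterByExpr filter and were fitted in R 4.3.3 with edgeR 4.0.16 (TMM scaling, quasi-likelihood test of T24R2 against T24, Benjamini-Hochberg adjustment). SE is the log2 fold change divided by the root of the F statistic. The biological coefficient of variation was 6.61%. Where no library of a line exceeded 3 counts, the fold was given as a bound against 3 counts per library. Alternatives used DESeq2 1.42.0, limma 3.58.1, other scalings and filters, a replicate block and each library left out. The steps were tested on simulated data. Replicates were not duplicates of each other (chi-square over its degrees of freedom 2.01 to 7.04 between pairs of the same line). Sequence steps used Python 3.11.15 with numba 0.67.0 and figures matplotlib 3.10.9. Of 61533 genes, symbols came from a gene name table for 42083.

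The listed genes and all gene lists were chosen with earlier results of these data known. The genes named are the 7 listed, the 10 other family genes, the 2 called higher and 2 called lower with the smallest adjusted p in each pathway list, NFE2L2 and KEAP1, the tested neighbours flanking each locus, and for each listed gene those most correlated with it over 10 libraries (log2 CPM with a prior count of 2). Genes of the chromosome 10 stretch, TXNRD1 and the markers were named after their values were seen.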

Additional observations from a re-analysis of the deposited data

Results flagged for a closer look

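Within each line, the CPM of the highest or lowest library was set against the other 4 by the size of its gap relative to the whole range. Over 32 genes named above, 64 groups of 5 libraries were examined and 7 stood out, where chance gives about 1 in 20, or 3.2. AKR1A1 in T24 replicate 3 lay at 102.4 CPM, below the 107 to 108 of the remaining T24 libraries, and AKR7A2 in T24 replicate 1 had 68.61 CPM, against 62.9 to 63.9. AKR1C8 in T24 replicate 4 had 0.4302 CPM, against 0 to 0.105. KCNAB3 in T24R2 replicate 5 had 3.048 CPM, against 4.37 to 4.70. PTGES in T24R2 replicate 1 had 0.9175 CPM, against 0.0867 to 0.197. In T24R2 replicate 3, GLO1 had 124.4 CPM, against 108 to 112, and ALDH5A1 had 21.02 CPM, against 15.4 to 17.0.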

How the results depend on the processing

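Of 438 recomputed values for 23 results, 405 were close to the reported one, meaning within 1.5 times for a count of genes, and the same sign and side of the limits for a gene. By that measure the 23 values under the replicate block were all close, though the count of genes called went from 4027 to 3979 higher and from 4282 to 4261 lower (AKR1C1 2.37, AKR1C3 3.51). Same-numbered libraries deviated together by correlations of -0.021 to 0.0155, and 1 of 5 T24 libraries correlated best with its own number. No shared deviation by number was thus seen, though this cannot show whether same-numbered libraries were prepared together. With a mean of at least 100 counts, 2350 genes were higher and 2641 lower, and 1918 and 2293 with a log2 fold change over 1. For a single gene that last setting moves only the limit and cannot change the value, though it is among the 438. The count of listed genes called lower went from 1 to 0 without scaling, with upper-quartile scaling, with a mean of at least 100 counts and with a log2 fold change over 1, and that of listed genes called higher from 3 to 2 with a mean of at least 100 counts, where AKR1B10 is not tested. AKR7A2 changed sign to 0.159 without scaling, 0.069 with upper-quartile scaling and 0.026 with a mean of at least 100 counts, and to 0.014, 0.031 and 0.018 without T24 replicate 1, T24R2 replicate 3 and T24R2 replicate 5. With AKR1C1 to AKR1C4 added into 1 row, the value that stands in for AKR1C2 was 2.71.

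With a mean of at least 100 counts, other family genes called higher went from 5 to 1, carbonyl and aldehyde enzymes called lower from 7 to 2, steroid, retinal and prostaglandin enzymes called lower from 7 to 3, and polyol, glucuronate and succinic semialdehyde genes called higher from 6 to 3, since fewer genes are tested. With a log2 fold change over 1, NRF2 and its partners went from 4 to 1 higher and from 3 to 1 lower, carbonyl and aldehyde enzymes from 4 to 2 higher and from 7 to 3 lower, steroid enzymes from 3 to 1 higher and polyol genes from 6 to 2 lower. Without scaling, which moves the median over all genes from 0.02 to 0.18, carbonyl enzymes called lower were 4 and steroid enzymes called higher 5, and all genes split into 5206 higher and 3431 lower. Without a filter on low counts, 1 NRF2 target was lower and 5 steroid enzymes were higher.

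Over the 10 fits that left out 1 library each, genes called higher ranged from 4042 to 4138 and lower from 4293 to 4374, listed genes called higher stayed at 3 and lower at 1, other family genes called higher at 5, and NRF2 targets called higher at 16, while NRF2 and its partners called higher were 3 to 4. The log2 fold change ranged from 2.29 to 2.42 for AKR1C1, 3.46 to 3.58 for AKR1C3, -0.54 to -0.50 for AKR1A1, 0.30 to 0.36 for AKR1B1, -0.39 to -0.16 for AKR1C2 and -0.037 to 0.031 for AKR7A2. Depth limits AKR1B10, AKR1C2, AKR1C4 and AKR1C8, which had few counts per library.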
